A study of Zea mays with 12 samples.

Results

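HRGP, CesA-4 and cesa8 are maize genes of the cell wall, and their transcripts were followed in immature ears of 2 inbred lines and of the reciprocal hybrids between them. HRGP encodes a hydroxyproline-rich glycoprotein, a structural protein of the wall. CesA-4 and cesa8 encode catalytic subunits of cellulose synthase. The members were every probe set that the array's annotation gives to these genes: Zm.162.1.A1_at and Zm.162.1.A1_x_at for HRGP, Zm.520.1.S1_at and Zm.520.1.S1_x_at for CesA-4, and Zm.7166.1.A1_at for cesa8. This makes 5 probe sets and 3 genes, of 17621 probe sets on the array of which 1452 were annotated with 1 gene, 1108 genes in all. The genes were selected on the difference between the inbreds B73 and Mo17 measured on the same arrays, so that difference is given as a description with no test. No other probe set on the array carries the cluster numbers of these identifiers. The RefSeq gene table lists HRGP among the names of 2 genes, and 1 of them has probe sets in the annotation.

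The tissue was the immature ear, the young female inflorescence, of field-grown plants, freed of husks and silks by hand. The 4 genotypes were the inbred B73, the inbred Mo17 and the hybrids B73xMo17 and Mo17xB73, where by maize convention the seed parent is written first. No treatment was applied and no transgene or mutant allele is named in the labels. Each genotype had 3 biological replicates, each an RNA pool from 6 ears of 3.7 to 5.4 mm on its own array, with ears taken on 3 consecutive days. The study's title asks how expression differences between the inbreds are passed to their hybrids.

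The plant primary wall is a mesh of cellulose microfibrils in a matrix of other polysaccharides and structural glycoproteins. Cellulose is made at the plasma membrane by complexes that join several different cellulose synthase subunits, each coded by its own gene. Hydroxyproline-rich glycoproteins of the extensin type are secreted and can be cross-linked in the wall. Growing organs such as the young ear make primary walls in dividing and expanding cells, while secondary walls with lignin form later in vascular and supporting tissue.

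Signals are MAS5 intensities after each array was scaled to a common median. Values below a floor of 12.39, the median over arrays of the 20th percentile, were set to it. The brightness per transcript of a probe set is not known, so differences in level between genes are not read from these signals. As deposited, array medians ran from 123.2 in Mo17 replicate 1 to 231 in B73 replicate 2, and B73 exceeded Mo17 by a median of 0.28 on the log2 scale over the tested probe sets, which scaling brought to -0.050. Correlations of log2 signal between arrays of 1 genotype were 0.977 to 0.992.

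Of 33 probe sets of ear meristem and floral genes, 29 passed the filter on low signals, at a median signal percentile of 64.7. Of the photosynthetic, endosperm and pollen lists, 14 of 18, 5 of 16 and 2 of 6 probe sets passed, at medians of the 49.7th, 16.3rd and 17th percentiles. These are different probes, so the lists' percentiles give no order of tissue content. At the floor on every array were zmm2 of the ear list, pep1 of the photosynthetic list, pbf1, both probe sets of FL2 and 1 of the 2 probe sets of o2 of the endosperm list, and mgs1 and PRO1 of the pollen list. Summed over the photosynthetic list, the arrays of B73 had signals of 3663 to 4762 and those of Mo17 5035 to 5620, with 4259 to 4842 for B73xMo17 and 4075 to 4594 for Mo17xB73. Over the ear list, B73 had 19759 to 21468 and Mo17 17011 to 18474, with 18649 to 19839 for B73xMo17 and 19328 to 19783 for Mo17xB73. Over the endosperm list they were 4746 to 5055, 5116 to 5918, 5017 to 5713 and 5133 to 5706 in the same order, and over the pollen list 5925 to 6279, 4922 to 6190.1, 5895 to 6374 and 5545 to 5758. The arrays of the inbreds did not overlap in the first 3 of these sums and overlapped in the last, and the part of tissue make-up in the differences below was not tested. The endosperm and pollen sums rest mostly on the few probe sets that passed, the brightest at the 97.1st and 96.9th percentiles. They are not read as endosperm or pollen content. In pooled ears, fewer cells that express a gene and less RNA per cell cannot be told apart.

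HRGP was the member with the widest range. The probe set Zm.162.1.A1_at read 4330.0, 3490.0 and 3479 in the 3 B73 arrays. In Mo17 it read 14.2 in replicate 2 and lay at the floor in replicates 1 and 3. It read 3006, 2703 and 2878 in B73xMo17 and 2955, 2787 and 2689 in Mo17xB73. The 6 hybrid arrays therefore formed a narrow band below all B73 arrays and far above all Mo17 arrays, and the 2 hybrids overlapped.

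The second HRGP probe set showed the same order. Zm.162.1.A1_x_at belongs to the class in which, by the array maker's naming, some probes can also match other transcripts. It read 3107, 2370.1 and 2585 in B73 and did not rise above the floor in any of the 3 Mo17 arrays. In the hybrids it read 1935, 1499 and 1557 (B73xMo17) and 2023, 1568 and 2021 (Mo17xB73). Again B73 was above every hybrid array and the hybrids overlapped each other.

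The log2 difference between B73 and Mo17 was 8.17 for Zm.162.1.A1_at and 7.75 for Zm.162.1.A1_x_at, and 8.45 and 8.03 in the values as deposited. These put HRGP at the top of the table, above 99.99% and 99.98% of the probe sets tested. Since Mo17 was at the floor, the second value means at least 216-fold more signal in B73, and the size of both depends on where the floor is set. With the floor at the 40th percentile the differences were 5.51 and 5.02. Both hybrids also read well above Mo17. For Zm.162.1.A1_x_at the signal was at least 133-fold higher in B73xMo17 and at least 150.0-fold higher in Mo17xB73. These are differences in signal. Probe sequences were not used, so whether the probes bind B73 and Mo17 transcripts equally was not tested, here or for CesA-4.

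CesA-4 had the same pattern at a smaller span. The probe set Zm.520.1.S1_at read 327, 364 and 297 in B73. In Mo17 it read 15.4 in replicate 1 and was at the floor in the other 2 replicates. Its hybrid values were 164, 185 and 204 in B73xMo17 and 189, 229 and 198 in Mo17xB73. All hybrid arrays lay between the inbreds without touching either, and the hybrids overlapped.

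The probe set Zm.520.1.S1_x_at stayed above the floor of 12.39 on every array. It read 335, 329 and 313 in B73 and 28.8, 26.5 and 24.0 in Mo17. It read 173, 191 and 206 in B73xMo17 and 220.2, 228 and 227 in Mo17xB73. Here the 3 arrays of Mo17xB73 were above the 3 of B73xMo17. The share of all probe sets whose hybrids separate in this way was not counted, so nothing is read from it. The log2 difference between B73 and Mo17 was 4.62 for Zm.520.1.S1_at and 3.63 for Zm.520.1.S1_x_at, a ratio of 12.3 for the latter, and 4.99 and 3.96 as deposited. With the floor at the 40th percentile they shrank to 1.99 and 1.98, so both depend on where it is set.

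The third gene, cesa8, varied little. It read 705, 811 and 693 in B73 and 584, 582 and 611 in Mo17. It read 633, 572 and 613 in B73xMo17 and 688, 588 and 758 in Mo17xB73. B73 lay above Mo17 without overlap, B73xMo17 overlapped Mo17, and Mo17xB73 spread over both inbreds. The log2 difference between B73 and Mo17 was 0.31, and 0.64 as deposited, where the median over all tested probe sets was 0.28.

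By genotype means the order was B73, the hybrids, then Mo17 for each member. For Zm.162.1.A1_at these were 3766 ± 488 (SD, n = 3) in B73, 2863 ± 152 in B73xMo17 and 2810.3 ± 134 in Mo17xB73, with Mo17 at or next to the floor. The neighbours B73xMo17 and Mo17xB73 overlapped in HRGP, in Zm.520.1.S1_at and in cesa8 and so did not differ beyond their spread. In cesa8 the same held for B73xMo17 (606 ± 31.2) and Mo17 (592 ± 16.1). All 5 probe sets had every B73 array above every Mo17 array, which was true of 22.4% of the 11126 probe sets tested. After scaling, 19.5% of tested probe sets passed as higher and 21.5% as lower in B73, at an adjusted p under 0.05 in limma, and 20.5% and 5.07% as deposited. The members were chosen by this contrast and nothing is read from their share.

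**Figure D1:**
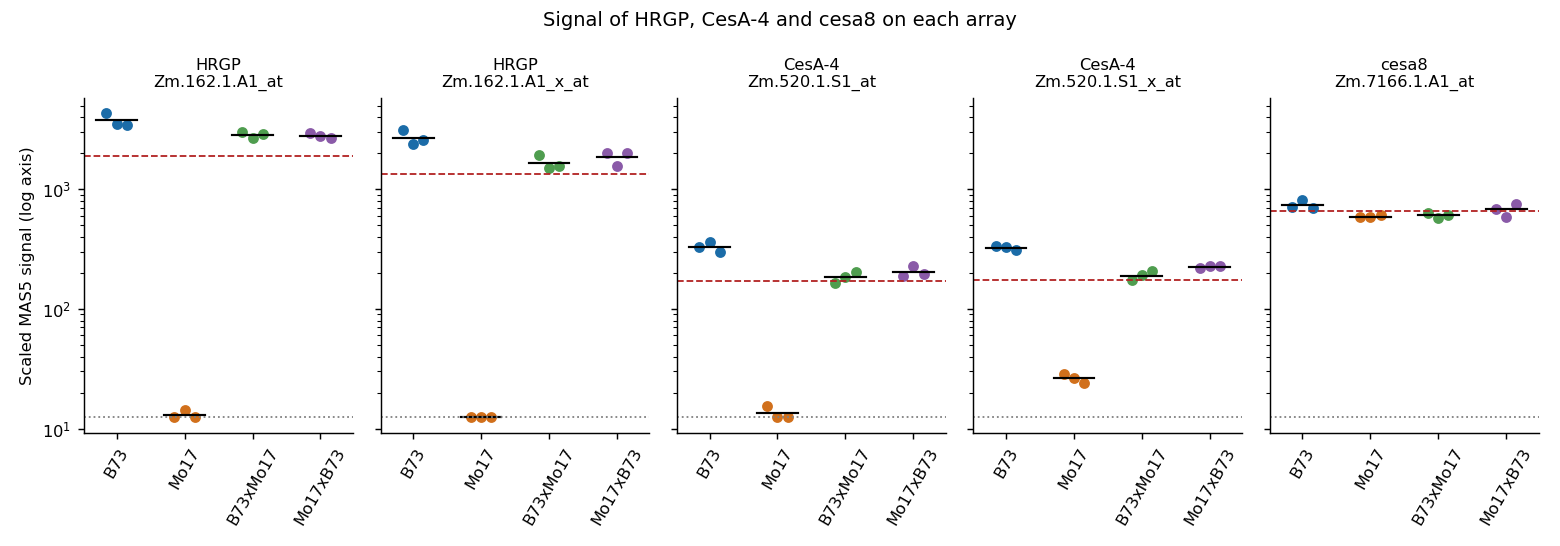
Scaled MAS5 signal (log axis) of the 5 probe sets on the 12 arrays, with 1 point per array, a black bar at each genotype mean, a dotted line at the floor of 12.39 and a dashed red line at the midparent, the mean of the inbreds' signals. HRGP and CesA-4 in the hybrids sit near the B73 end of this axis, around or above the dashed line, while all genotypes of cesa8 lie between 572 and 811.

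The reciprocal hybrids share the same nuclear parents and differ in which served as seed parent, so the comparison asks whether the direction of the cross matters. It is also the comparison that did not enter the choice of the genes. None of the 5 probe sets passed in limma, with an adjusted p of 1.00 each, and 0% of all probe sets tested passed, while 288 of 11126 had an unadjusted p under 0.05. The log2 difference, B73xMo17 minus Mo17xB73, was 0.026 ± 0.097 (SE) for Zm.162.1.A1_at, with a 95% interval of -0.18 to 0.23. For Zm.162.1.A1_x_at it was -0.17 ± 0.13, with an interval of -0.45 to 0.11.

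The estimates of CesA-4 and cesa8 were negative too, like that of Zm.162.1.A1_x_at, and none of them passed. For Zm.520.1.S1_at the difference was -0.15 ± 0.15 (interval -0.47 to 0.16) and for cesa8 -0.16 ± 0.10 (interval -0.37 to 0.054). For Zm.520.1.S1_x_at, where the arrays did not overlap, it was -0.25 ± 0.11 (interval -0.49 to 0.00072, unadjusted p = 0.0506 in limma). The furthest end of any interval was -0.49 on the log2 scale, for Zm.520.1.S1_x_at. With 3 arrays each, an effect of the cross direction inside a probe set's own interval is not excluded. Leaving out 1 array moved the log2 differences, from -0.29 to -0.097 for Zm.162.1.A1_x_at, from -0.23 to -0.071 for Zm.520.1.S1_at, from -0.31 to -0.18 for Zm.520.1.S1_x_at and from -0.25 to -0.071 for cesa8. The values nearest 0 came without replicate 2 of B73xMo17 for the first, replicate 1 of B73xMo17 for both CesA-4 probe sets and replicate 3 of Mo17xB73 for cesa8. As deposited, 6 probe sets of the whole array passed, and no member was among them.

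The hybrids were then set against the midparent, the level that equal contributions from both inbreds would give on the linear scale. The parental arrays in this comparison also chose the genes. HRGP lay above the midparent: the mean hybrid signal of Zm.162.1.A1_at was 2836 against a midparent of 1889.7, a log2 difference of 0.59 ± 0.083 (SE; adjusted p = 0.00512 in limma). Each hybrid passed as well, B73xMo17 with 0.61 ± 0.10 (adjusted p = 0.0266) and Mo17xB73 with 0.58 ± 0.10 (adjusted p = 0.0138). These SEs rest on a spread shared by all genotypes. B73, which sets most of this midparent, spread more (SD 488) than B73xMo17 (152) and Mo17xB73 (134), and 2 of the 3 Mo17 arrays were set to the floor. The SEs and p-values can therefore understate the uncertainty that comes from B73. As higher than the midparent, 0.8% of tested probe sets passed for the mean hybrid, 0.144% for B73xMo17 and 0.683% for Mo17xB73.

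The call for HRGP rests on the scaling. As deposited the difference for Zm.162.1.A1_at was 0.34 (interval -0.080 to 0.76, adjusted p = 0.990), where 0.261% of probe sets passed as higher and the median over all probe sets was -0.10. Without the filter on low signals the adjusted p was 0.0586. In each fit that left out 1 of the 12 arrays the mean hybrid passed (adjusted p 0.00303 to 0.0250). The call for each hybrid alone was lost in more settings. For B73xMo17 it was lost as deposited (adjusted p = 1.00), after quantile normalization (0.0731), without the filter (0.162) and with log2(signal + 16) in place of the floor (0.158). For Mo17xB73 it was lost as deposited (0.913), without the filter (0.111) and with log2(signal + 16) (0.108). The call for B73xMo17 alone was also lost without B73 replicate 2 (adjusted p = 0.0726) or 3 (0.101), without any 1 of its own replicates (0.141, 0.0594 and 0.149 for replicates 1, 2 and 3) or without Mo17xB73 replicate 2 (0.0513). That for Mo17xB73 alone was also lost without B73 replicate 3 (0.0644) or without its own replicate 1 (0.0587) or 2 (0.0848).

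The other HRGP probe set, Zm.162.1.A1_x_at, did not pass in this fit. With the replicate number as a block it passed narrowly, as given at the end. Its mean hybrid signal was 1767 against a midparent of 1349.9, a log2 difference of 0.39 ± 0.11 (interval 0.15 to 0.62, adjusted p = 0.118 in limma), and 0.13 as deposited. The difference between the 2 HRGP probe sets was not tested. Without B73 replicate 1 the mean hybrid differences were 0.69 and 0.49 after scaling. For both HRGP probe sets this array was the brightest of its genotype after scaling and the dimmest as deposited (4050 and 2906).

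CesA-4 and cesa8 did not pass. For Zm.520.1.S1_at the mean hybrid was at 195 against a midparent of 171, a log2 difference of 0.18 ± 0.12 (interval -0.085 to 0.45, adjusted p = 0.580). For Zm.520.1.S1_x_at it was at 207 against 176, a difference of 0.23 ± 0.095 (interval 0.026 to 0.43, adjusted p = 0.314). As deposited both differences turned, to -0.057 and to -0.00083. For cesa8 the mean hybrid was at 642 against 664, a difference of -0.054 ± 0.069 (interval -0.20 to 0.095, adjusted p = 0.799).

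Counted by array after scaling, all 6 hybrid arrays were above the midparent for both HRGP probe sets. This was so for 5 of 6 arrays for both CesA-4 probe sets and for 2 of 6 for cesa8. Of all tested probe sets, 8.84% had all 6 hybrid arrays above the midparent. These counts were not made on the values as deposited.

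**Figure D2:**
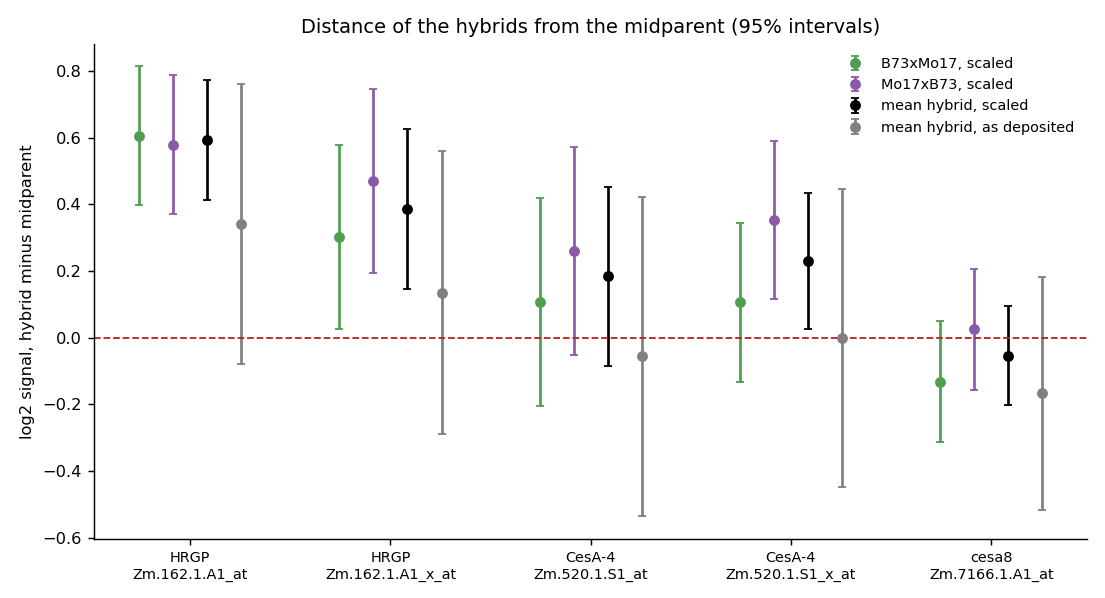
Log2 signal of the hybrids minus that of the midparent for the 5 probe sets, with 95% intervals from limma, for each hybrid and their mean after scaling and for the mean hybrid as deposited (grey). The 3 scaled intervals of both HRGP probe sets and those of Zm.520.1.S1_x_at for Mo17xB73 and the mean hybrid lie above 0, of which only those of Zm.162.1.A1_at passed after adjustment, and every grey interval includes 0.

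Written as a share of the B73 signal, the mean hybrid reached 75.3% for Zm.162.1.A1_at and 65.8% for Zm.162.1.A1_x_at. For CesA-4 it reached 59.2% and 63.7%, and for cesa8 87.2%. With Mo17 close to the floor, equal contribution from both parents would leave the hybrids of HRGP and CesA-4 just above 50% of B73, the ratio of the midparent to B73 being 50.2% for Zm.162.1.A1_at and 54.1% for Zm.520.1.S1_x_at. The position of a hybrid sets 0 at the midparent, 1 at the higher inbred and -1 at the lower. The mean hybrid was at 0.50 and 0.31 for HRGP, at 0.15 and 0.21 for CesA-4 and at -0.31 for cesa8, whose parents are too close for the position to be precise (-1.28 to 1.30 over its 6 hybrid arrays). As deposited the HRGP positions were 0.27 and 0.10, and those of CesA-4 -0.036 and 0.0091.

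These positions were set beside those of the 1349 other probe sets with a passing parental difference of at least 2-fold. Their median position was 0.015, with quartiles of -0.17 and 0.21. The positions of HRGP lay at their 90.8th and 81.5th percentiles, and those of CesA-4 at the 69.8th and 74.8th. Of these probe sets, 110 were higher in B73 with at least 2 Mo17 arrays at the floor, as in HRGP and in Zm.520.1.S1_at. Their median was -0.028, with quartiles of -0.10 and 0.070, and HRGP lay at the 99.1st and 95.5th percentiles and Zm.520.1.S1_at at the 88.2nd.

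The hybrid position was also set against the brightness of the higher inbred, in bands chosen after the values were seen. Among other probe sets at least 8-fold higher in B73, the median position was -0.034 below a B73 signal of 250 (81 probe sets), 0.025 from 250 to 1000 (97), 0.18 from 1000 to 2500 (21) and 0.48 above 2500 (7, all above the midparent). Both HRGP probe sets belong by signal to the last band and CesA-4 to the second. Among probe sets at least 8-fold higher in Mo17, the medians in the same bands were -0.12 (41 probe sets), -0.046 (47), 0.027 (19) and -0.20 (6, 2 above the midparent), which did not follow the same rise. The part of signal brightness in the HRGP position was not tested, and the top bands hold few probe sets.

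**Figure D3:**
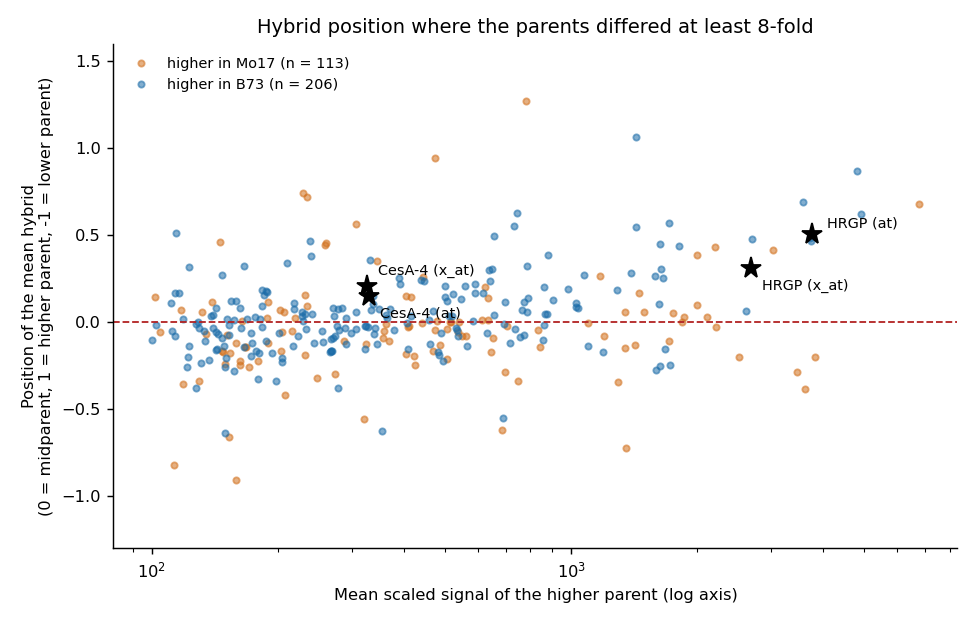
Position of the mean hybrid between the inbreds against the mean scaled signal of the higher inbred (log axis), for probe sets with a passing parental difference of at least 8-fold, with 1 point per probe set (206 higher in B73, 113 higher in Mo17) and stars for HRGP and CesA-4. The HRGP stars are at 0.50 and 0.31 among the few brightest points, and the CesA-4 stars are at 0.15 and 0.21.

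The probe sets most like each member were found by the root mean square, over the 12 arrays, of the difference in log2 signal after each probe set was centred on its own mean. For both HRGP probe sets the nearest was that of his2b5, by its name a histone H2B gene, at 0.33 and 0.26 log2 units, against a median of 3.45 and 3.21 over all tested probe sets. In B73 the his2b5 signal averaged 4802 ± 744 (SD, n = 3) and in Mo17 29.5 ± 4.35, while B73xMo17 had 4532 ± 705 and Mo17xB73 had 4450.1 ± 137. Next were the unnamed probe sets Zm.16281.2.S1_at (0.48 and 0.39) and Zm.15894.1.A1_at (0.70 and 0.50). The next with a gene symbol, aba1, ranked 51st and 52nd, at 1.62 and 1.38. All 12 arrays enter the distance, which therefore includes the step between B73 and Mo17 that chose the genes.

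The probe sets nearest to CesA-4 lay closer. Nearest to Zm.520.1.S1_at were the unnamed Zm.6280.1.A1_at (0.12), Zm.14800.2.A1_a_at (0.13) and Zm.8100.1.A1_at (0.17), each with at least 2 Mo17 arrays at the floor. Nearest to Zm.520.1.S1_x_at were the unnamed Zm.8737.1.A1_at (0.13), Zm.16576.1.A1_at (0.13) and Zm.6604.1.A1_at (0.14). The nearest with a symbol were aba1 (0.37) and In2-1 (0.57) for the first, and eif7 (0.24) and In2-1 (0.25) for the second. For cesa8, whose range was small, the nearest were Zm.8997.1.A1_at (0.076), Zm.1960.1.A1_at (0.091) and Zm.18255.1.S1_at (0.094), and by symbol Agpat4 and stv3 (0.11 each), where the median over all tested probe sets was 0.25.

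The other cellulose synthase genes show how far the CesA-4 pattern was shared. The array annotation names 10 of them, and 7 passed the filter on low signals. None had a parental step like that of CesA-4: their B73 minus Mo17 differences ran from -0.38 to 0.44 on the log2 scale. CesA-9 was higher in B73, with 484 ± 48.6 (SD, n = 3) against 356 ± 32.2 in Mo17 and 435 ± 13.3 and 456 ± 24.3 in B73xMo17 and Mo17xB73. The limma fit gave a difference of 0.44 ± 0.10 (SE) with an adjusted p of 0.00214. The deposited values gave 0.77 with an adjusted p of 0.0102.

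CesA-5 was lower in B73 after scaling, with 1596 ± 82.7 against 2083 ± 85.2 in Mo17 and 1653 ± 139.9 and 1889 ± 126 in the hybrids in the same order. The limma fit gave a difference of -0.38 ± 0.082 with an adjusted p of 0.00187. The deposited values gave -0.051 with an adjusted p of 0.886. The other 5 did not pass after scaling. Their signals in B73 and Mo17 were 540.0 ± 20.8 and 573 ± 54.7 for CesA-1, 641 ± 38.6 and 533 ± 141 for CesA-2, and 1656 ± 166 and 1865 ± 129 for CesA-3. They were 522 ± 51.0 and 628 ± 48.0 for CesA-6, and 598 ± 28.2 and 551 ± 37.2 for CesA-7. As deposited CesA-2 passed as higher in B73 (0.63, adjusted p = 0.0464). The B73 minus Mo17 difference turned as deposited for CesA-1 (-0.083 to 0.25), CesA-3 (-0.17 to 0.16) and CesA-6 (-0.27 to 0.063), none of which passed either way.

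In the hybrids these 7 genes lay near the midparent, at -0.14 to 0.088 on the log2 scale for the mean hybrid. None passed, beside 1.29% of all tested probe sets. As deposited CesA-9 turned from 0.088 to -0.033. The 3 that did not reach the filter, cesa10, cesa11 and CesA12, are known in maize for secondary wall cellulose. Their mean signals were 36.0, 32.2 and 51.4 in B73 and 22.9, 19.8 and 43.2 in Mo17. In the hybrids they lay between 23.7 and 43.9.

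**Figure D4:**
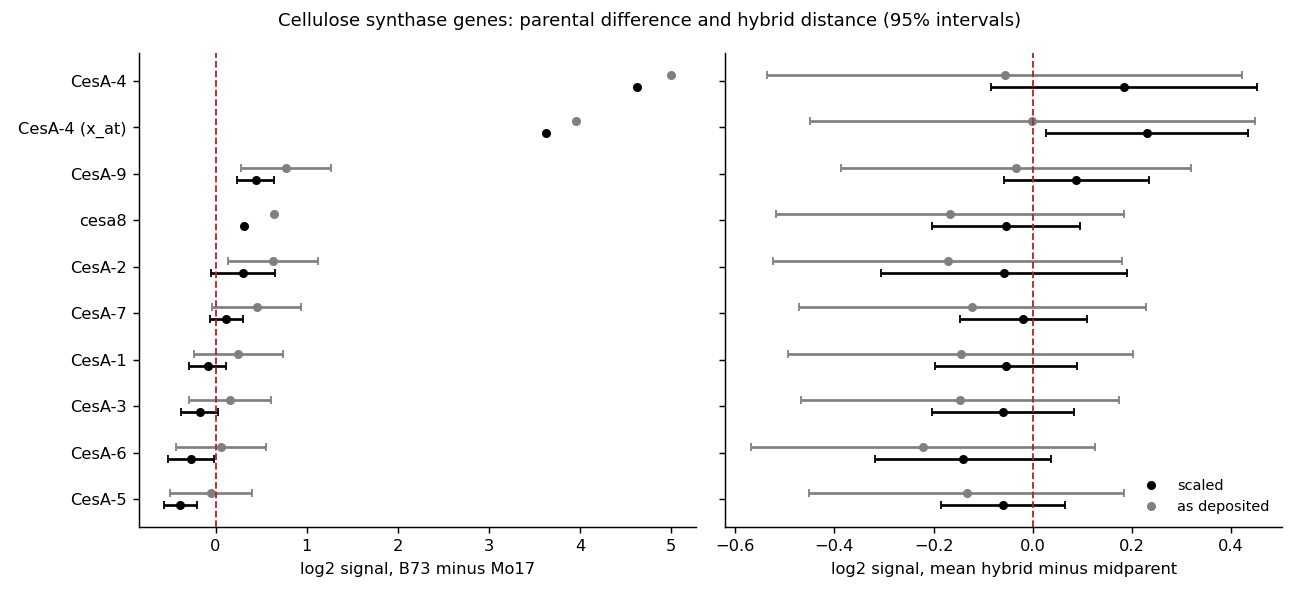
Log2 differences of 9 cellulose synthase genes between B73 and Mo17 (left) and between the mean hybrid and the midparent (right), after scaling (black) and as deposited (grey), with 95% intervals from limma except for CesA-4 and cesa8 on the left, which were chosen by that difference. Both CesA-4 probe sets stand at 3.63 or more on the left while the 7 other genes run from -0.38 to 0.44 after scaling.

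The wider cell wall list held 47 probe sets of 40 other genes, of which 25 were tested. Between B73 and Mo17, 7 of the 25 passed as higher in B73 and 2 as lower after scaling, and 8 and 0 as deposited, with 6 higher and 0 lower in both. Over all tested probe sets, 19.5% passed as higher and 21.5% as lower after scaling, and 20.5% and 5.07% as deposited, which are also the shares to read the counts by role against. Their median difference was 0.094, beside -0.050 over all tested probe sets. The only other structural wall protein named, grp3, a glycine-rich protein gene, did not pass the filter, and neither did the 2 probe sets of pectin enzymes.

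Wall loosening genes, which are expansins and related proteins, had 9 of 18 probe sets tested, with 4 higher and 1 lower in B73, beside 19.5% and 21.5% of all probe sets. EXPA5, an expansin gene, had a B73 signal of 389 ± 33.6 and a Mo17 signal of 155 ± 80.6, a difference of 1.45 ± 0.30 (SE; adjusted p = 0.00134 in limma). The expansin gene expB3 differed by 1.03 ± 0.23 (adjusted p = 0.00298). The 3 probe sets of the expansin gene expA4 disagreed, at 2.45 ± 0.25, 1.02 ± 0.12 and -0.92 ± 0.15, the last of which did not pass as deposited (-0.58). No direction can be given for expA4 as a gene.

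Of 5 tested probe sets of lignin and phenolic genes, 2 were higher in B73 after scaling, beside 19.5% of all probe sets. BM1, known in maize as the brown midrib gene of cinnamyl alcohol dehydrogenase, had a B73 signal of 253 ± 16.8 and a Mo17 signal of 136 ± 10.7, a difference of 0.90 ± 0.18 (adjusted p = 0.00100). PAL1, encoding phenylalanine ammonia-lyase, differed by 0.27 ± 0.071 (adjusted p = 0.00714) and did not pass as deposited (0.61, adjusted p = 0.0545). Cellulose synthesis as a whole, with COBRA-like genes beside the synthases, had 1 higher and 1 lower of 9 tested, the synthases named above, beside 19.5% and 21.5% of all probe sets, and neither of 2 hemicellulose probe sets passed. None of the 25 probe sets passed between the reciprocal hybrids or between the mean hybrid and the midparent in limma, where 0% and 1.29% of all tested probe sets passed. In each comparison 2 of the 25 had an unadjusted p under 0.05 in limma, beside 288 and 1447 of all 11126.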

How the data were processed

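The deposited intensities, 1 linear signal per probe set and array for 17734 probe sets, were made with MAS5, per the submitters' processing notes. The version and scaling target of MAS5 were not stated there. The 113 control probe sets were left out. Each array was scaled to a common median, signals were floored at 12.39 (20th percentile) and taken to log2, and probe sets above the 40th percentile on at least 3 arrays were kept (11126 kept, 6495 removed). All 12 arrays were fitted with limma 3.58.1 in R 4.3.3 (1 mean per genotype, eBayes with trend, 8 residual degrees of freedom) with Benjamini-Hochberg adjustment over the 11126. The fit was tried on simulated data in which the inbreds did not differ. The midparent comparison was therefore not checked for inbreds that differ, as in HRGP and CesA-4. The midparent was the log2 of the mean parental signal, its SE by the delta method. Values as deposited, other scalings, floors, filters, variance models, a replicate block and each array left out were tried. The prior degrees of freedom from eBayes were 5.23 after scaling and infinite as deposited. As deposited, each probe set was therefore given the spread of the trend at its brightness in place of its own. The p-values of the 2 fits thus rest on different measures of spread.

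Gene names came from the platform's annotation and RefSeq (assembly: Zm-B73-REFERENCE-NAM-5.0), matched by gene ID for 1377 probe sets, with HRGP, CesA-4 and cesa8 taken from its older names. All member probe sets and the whole cell wall list by role are reported, with passing genes of each role (up to 4, by smallest p) and every cellulose synthase gene named, and the 3 nearest probe sets and 2 nearest symbols by likeness. The members, lists and tests were chosen with earlier results of these data known. Probe sequences and genome coordinates were not used here. The small number of arrays limits the precision.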

Additional observations from a re-analysis of the deposited data

How the results depend on the processing

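Fewer or more probe sets passed by setting. As deposited, 2846 passed between the inbreds (4561 after scaling), 0 of the wall list as lower in B73 (2), 6 between the hybrids (0), 87 for the mean hybrid against the midparent (144) and 80 for Mo17xB73 (121). With no filter 36 passed for the mean hybrid, 6 for B73xMo17 (20 with it) and 22 for Mo17xB73. With the floor at the 40th percentile they were 388, 158 and 255, with a midparent of mean log2 values 806, 536 and 637, and with no floor and log2(signal + 16) 32 for B73xMo17.

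For HRGP Zm.162.1.A1_at against the midparent, the mean hybrid was at 0.34 as deposited and 0.60 with no filter, neither passing. A midparent of mean log2 values, which lies lower by construction where the parents differ widely, gave 3.27 for Zm.162.1.A1_x_at, 1.55 for Zm.520.1.S1_at and 1.16 for Zm.520.1.S1_x_at, all passing. The mean hybrid of CesA-4 turned to -0.057 (Zm.520.1.S1_at) and -0.00083 (Zm.520.1.S1_x_at) as deposited, and to -0.082 for the first with the higher floor. In the same settings B73xMo17 turned to -0.093 and -0.16 for Zm.520.1.S1_at and to -0.083 and -0.11 for Zm.520.1.S1_x_at, and Mo17xB73 to -0.020 and -0.0048 for Zm.520.1.S1_at. For cesa8, Mo17xB73 turned to -0.13 as deposited and -0.012 with no filter. The reciprocal difference of Zm.162.1.A1_at turned to -0.036 after quantile normalization. Beyond the effect of construction named, the cause was not tested.

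Leaving out 1 array gave 68 to 166 passing for the mean hybrid, 3 to 27 for B73xMo17, 5 to 137 for Mo17xB73 (5 without Mo17xB73 replicate 2) and 0 to 2 between the hybrids. The reciprocal difference of Zm.162.1.A1_at ran from -0.0092 to 0.068 and cesa8 in Mo17xB73 from -0.061 to 0.12.

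The labels number replicates 1 to 3 in each genotype without saying what a number shares. Deviations of same-numbered arrays correlated at -0.089 to 0.46 (11 of 18 pairs over 0.1), other pairs at -0.46 to 0.19, and 10 of 12 arrays correlated best with one of their own number, a hint from the data. The numbers were not taken to pair the arrays. With the replicate number as a block the mean hybrid of Zm.162.1.A1_x_at (0.39) had an adjusted p of 0.0497 and Mo17xB73 (0.47) one of 0.0479, and 165 probe sets passed for the mean hybrid.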
